A study of Mus musculus with 18 samples.

Results

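Poly-A RNA of the left ventricle was compared between mice lacking mORF4/NBDY and wild-type mice. The libraries were chosen by assay, as all RNA libraries of the series: 9 of 18, the other 9 being ribosome footprint libraries of the same hearts. They come from 4 wild-type hearts, numbered 1 to 4, and 5 hearts of mORF4/NBDY knockout mice, numbered 6 to 10. Every mouse was a male of the C57BL/6 strain, aged 20 weeks, kept under normal housing and given no treatment. How the knockout allele was made, and whether the wild-type mice were littermates, is not stated in the labels. Of 10597 genes listed by the authors, 10580 had a mean of at least 10 normalized reads over the 9 libraries and were tested. A normalized read is a gene's read count divided by 1 size factor per library.

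NBDY (mORF4) is a microprotein encoded by Nbdy, a gene once annotated as noncoding. It is known to bind EDC4, the scaffold of the mRNA decapping complex, and to affect the number of P-bodies, the cytoplasmic granules where decapping factors and repressed mRNAs gather. Decapping, which mostly follows removal of the poly-A tail, commits an mRNA to decay from its 5′ end. The level of a transcript with a poly-A tail reflects both its synthesis and its decay, and these libraries do not separate them. In ventricular muscle, a large share of mRNA encodes contractile proteins and the enzymes of mitochondrial respiration.

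Read totals, recovered from the smallest step between values, came to 11.2 to 12.4 M in wild-type libraries and 15.8 to 20.2 M in knockout libraries (M for mega), where few low values fix the step. They did not overlap (2-sided exact permutation test, p = 0.0159, the smallest that 4 hearts against 5 allow). The labels name no batch, so a batch of RNA libraries, this difference in depth and the genotype cannot be told apart in anything reported below. The 10 genes with most reads took 23.0 ± 1.34% of the total in the 4 wild-type libraries (mean ± SD) and 19.9 ± 1.02% in the 5 knockout libraries. On log2 values, Pearson's r across genes was 0.982 to 0.987 between wild-type hearts, 0.981 to 0.994 between knockout hearts and 0.959 to 0.968 between genotypes. The first principal component held 52.3% of the variance and separated the genotypes. The libraries were made with a kit that does not mark strand, so reads from a stretch that genes share cannot be told apart. Of the genes with a position, 13.5% overlap another listed gene when whole genes are compared from start to end, introns included. Such genes are marked as uncertain where named, although whether their exons overlap was not checked.

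Markers of the labelled tissue were abundant. All 6 cardiomyocyte markers (Myh6, Tnnt2, Actc1, Ryr2, Myl2 and Tnni3) were measured, and their sum ranged from 1656340 to 1949273 normalized reads in wild-type hearts and from 1450351 to 1665999 in knockout hearts. Summed atrial markers (Myl7, Nppa and Myl4, 3 of 4 measured) ranged from 15049 to 16771 in wild type and from 5257 to 8852 in knockout, with no overlap. Myl4 and Nppa carried this sum, since Myl7 differed in the other direction without passing. The wider atrial list of 7 tested genes did not separate the genotypes, with mean log2 deviations of 0.53, 0.32, -0.46 and -0.11 in wild-type hearts and 0.47, 0.32, -0.57, -0.12 and -0.38 in knockout hearts. Endothelial markers summed to 20839.9 to 24815 and 17759 to 21633, fibroblast markers to 11952 to 17711 and 12779 to 19031, smooth muscle and pericyte markers to 8942 to 11779 and 8567 to 10039, and macrophage markers to 3255 to 3542 and 2882 to 3905, with all 6 markers measured for each. Skeletal muscle markers (4 of 4) summed to 104640.2 to 141835 in wild type and 81271 to 94891 in knockout, with Myh1, Myh4 and Acta1 lower and Ckm slightly higher, and lymphocyte markers (2 of 5) to 277 to 376 and 149 to 256, both with no overlap. None of the measured markers was at 0 in any heart. None of the 4 adipocyte, 3 Schwann cell and 3 mesothelial markers was among the tested genes. In whole ventricle, fewer cells of a type and less RNA per cell cannot be told apart.

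RNA differed between genotypes for 49.4% of the genes tested, 24.3% higher and 25.1% lower in knockout (limma, Benjamini-Hochberg adjusted p below 0.05). These shares are the background against which every count below has to be read. Groups did not overlap for 40.5% of genes. With a log2 fold change of at least 0.5 in size, 10.6% of genes were higher and 9.44% lower. A size of at least 1 was reached by 2.46% of genes, 1.27% higher and 1.19% lower. Of the called genes 80.9%, and of the 260 that differed by at least 1 252, passed in every fit that left out a heart. In footprints of the same hearts 0.02% of genes passed. Footprint libraries held 6.67 to 40.8 M reads, with 367 to 626 listed genes at 0, against 0 to 6 in RNA libraries. A gene that did not pass in footprints is therefore not shown to be unchanged there.

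**Figure D1:**
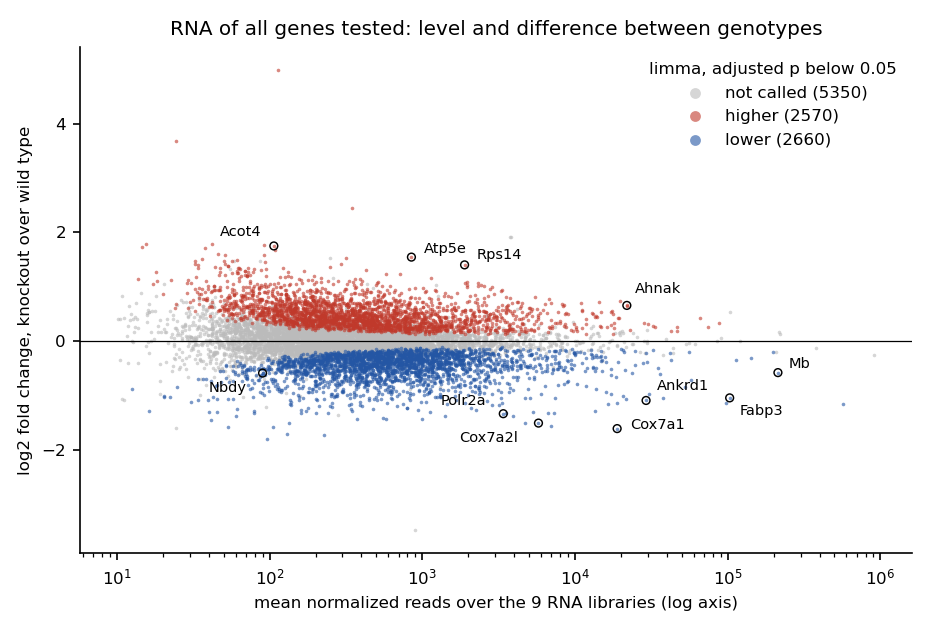
Each point is 1 of 10580 genes, with its mean RNA level over 9 libraries (normalized reads, log axis) against its log2 fold change, knockout over wild type. Red and blue points passed limma at an adjusted p below 0.05, higher (2570) and lower (2660). Named points include Cox7a1 at -1.61 and Atp5e at 1.54, and the scatter of called genes reaches both above 1 and below -1 at most levels.

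Nbdy itself (chrX:153723477-153741302, GRCm38) kept part of its transcript. RNA stood at 116, 114, 113 and 100.1 normalized reads in wild-type hearts 1 to 4 and at 61.8, 75.5, 66.7, 73.7 and 90.0 in knockout hearts 6 to 10. Every knockout heart was below every wild-type heart, with the highest knockout value, heart 10, closest to wild type. The knockout mean was 66.5% of the wild-type mean, a log2 fold change of -0.59 ± 0.13 (SE) (adjusted p from limma, 0.00246), while its footprints differed by -3.45, and the 2 changes differed from each other (limma interaction, adjusted p = 2.75e-04). Of the 3 listed genes within 1 Mb, Mageh1 rose by 0.65 (adjusted p from limma, 0.0129), though its groups overlapped and it did not pass after correction for gene span (limma adjusted p = 0.0769). Ubqln2 at -0.03 and Kctd12b at -0.15 did not pass, but Ubqln2 was called lower after that correction (-0.19, limma adjusted p = 0.0185).

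Several small subunits of the respiratory chain fell by more than 1 on the log2 scale. The respiratory chain passes electrons from NADH and succinate through complexes I to IV to oxygen, and ATP synthase uses the resulting proton gradient. Cox7a1, the heart and skeletal muscle form of a cytochrome c oxidase subunit, was at 23199, 31118, 29787 and 36917 normalized reads in wild-type hearts and at 8919, 9109, 11532, 9472 and 9944 in knockout hearts. The groups did not overlap, and the lowest wild-type heart held more than 2 times the RNA of the highest knockout heart. Its log2 fold change was -1.61 ± 0.12 (SE) (adjusted p from limma, 1.29e-06). Cox7a2l, which encodes a related protein, was at 9085, 9697, 8333 and 8991 in wild type and at 3164, 3056, 3051, 3167 and 3368 in knockout, a narrow band in each genotype. It had the smallest adjusted p of the genes tested (-1.51 ± 0.05 (SE); adjusted p from limma, 4.38e-08). Cox6a2, the muscle form of another oxidase subunit, went from 69894 ± 2793 (mean ± SD, 4 hearts) to 38682 ± 2792 (5 hearts), a fall of 0.85 with no overlap. Uqcrb, a small subunit of complex III, was at 18755, 21431, 18898 and 21347 in wild type and 7895, 7991, 8760.3, 8499 and 7789 in knockout, again without overlap (-1.29 ± 0.06 (SE); adjusted p from limma, 1.04e-07).

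More subunits rose than fell. In complex I, 23 of 37 measured members were higher and 9 lower, with a median log2 fold change of 0.23 against 0.01 for all genes tested. Ndufa2 was at 799, 662, 649.5 and 616 in wild type and 1442, 1369.8, 1576, 1724 and 1462 in knockout, with no overlap (1.15 ± 0.09 (SE); adjusted p from limma, 1.48e-06), though it overlaps Tmco6 on the genome. Ndufb8 and the iron-sulfur subunit Ndufs7 rose by 0.70 and 0.69. Against this direction, Ndufs5 was at 6176, 5899.7, 5725 and 6175 in wild-type hearts and at 2189, 2131, 2545, 2244 and 2347 in knockout hearts. All 5 knockout hearts lay below 50% of the lowest wild-type heart, and the log2 fold change was -1.39 ± 0.06 (SE) (adjusted p from limma, 9.75e-08). Ndufs6 and Ndufa1 fell by 1.05 each, and Ndufa1 overlaps Rnf113a1. In complexes II to IV, 17 of 28 members were higher and 7 lower, or 12 and 10 after the correction for gene span described with the length of genes. Those that rose include Uqcrfs1, the Rieske protein of complex III, by 0.67, Cyc1, cytochrome c1, by 0.55, and the oxidase subunit Cox5a by 0.51. Among ATP synthase subunits and the carriers listed with them, 12 of 23 were higher and 6 lower. Atp5e, the epsilon subunit, was at 468, 401, 471 and 319 in wild type and 1269.7, 1143, 1268, 1171 and 1134 in knockout, the largest rise of the list (1.54 ± 0.11 (SE); adjusted p from limma, 8.47e-07). Slc25a3, the mitochondrial phosphate carrier, and Atp5g1, a subunit of the rotor ring, rose by 0.56 and 0.72, whereas the stalk subunit Atp5h fell by 0.28 and the small accessory subunit Usmg5, which overlaps Taf5, by 0.39.

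**Figure D2:**
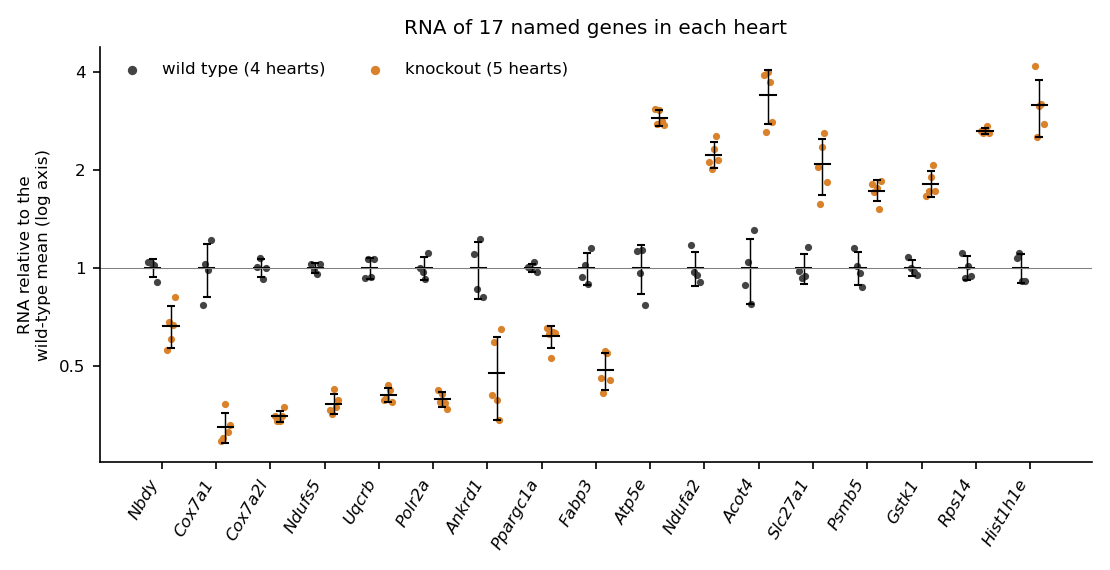
RNA of 17 named genes in each heart, divided by the gene's wild-type mean (log axis). Grey points are the 4 wild-type hearts, orange points the 5 knockout hearts, and lines the mean ± SD. All 17 genes have groups that do not overlap, and knockout hearts of Ndufs5 and Polr2a form tight bands while those of Acot4 and Ankrd1 spread widely.

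Genes of fatty acid use moved in both directions, with more rises. Fatty acids enter the cell through transporters, are bound by FABP3 in the cytosol and are burned in mitochondria after import by the carnitine system. Of 29 beta-oxidation genes, 12 were higher and 3 lower (median 0.14). Slc27a1, a fatty acid transporter, was at 1194, 1137, 1153 and 1416 in wild type and 2503, 1928, 2869.5, 3165 and 2253 in knockout (1.04 ± 0.13 (SE); adjusted p from limma, 4.90e-05), higher in every knockout heart. The short-chain dehydrogenase Acads rose by 0.86 and Cpt1b, the rate-limiting transferase of mitochondrial import in muscle, by 0.52. The opposite was seen for Fabp3, at 135646, 147601, 128514 and 165965 in wild-type hearts and 66261, 59489, 80036, 78845 and 65204 in knockout hearts. No knockout heart reached 63% of the lowest wild-type heart, and the log2 fold change was -1.05 ± 0.10 (SE) (adjusted p from limma, 1.09e-05). Fabp3-ps1, a pseudogene copy, was listed with values close to those of Fabp3, so the reads of both are uncertain, and Fabp3 also overlaps Zcchc17.

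Acyl-CoA thioesterases release free fatty acids from coenzyme A. Of 13 members 5 were higher and 2 lower. Acot4, a peroxisomal thioesterase, was at 40.4, 47.5, 35.5 and 59.5 in wild type and 178, 119.5, 182, 169.7 and 128 in knockout. Hearts 7 and 10 were the lowest of the knockout group, yet both exceeded every wild-type heart more than 2 times over (1.75 ± 0.18 (SE); adjusted p from limma, 1.44e-05). Its neighbours in a gene cluster on chromosome 12, Acot3, Acot5 and Acot6, rose by 1.17, 1.58 and 1.46. In each of Acot5 and Acot6, knockout heart 7 was again the lowest of its group. Acot1 and Acot2 of the same cluster, at 0.18 and 0.28, did not pass, although Acot2 did without knockout heart 7 (0.37, limma adjusted p = 0.0482). The members are similar in sequence, so reads may be shared between them. Because 4 genes of the cluster rose, the 120 bases before the RefSeq start of the one that rose most are shown (GRCm38.p6), with capitals marking matches to a CCAAT box, to the E-box CACGTG and, near the start, to AGGTCA, the core of nuclear receptor elements, on either strand.
Acot4, chr12:84038259-84038378, plus strand: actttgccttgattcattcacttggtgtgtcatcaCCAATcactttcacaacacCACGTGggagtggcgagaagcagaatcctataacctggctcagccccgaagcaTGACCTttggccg

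Transcriptional regulators of these enzymes did not share 1 direction. Ppargc1a, a coactivator of mitochondrial gene expression, was at 2727, 2683, 2818 and 2634 in wild type and 1780.1, 1698, 1437, 1719.8 and 1717 in knockout. Knockout heart 8 was the lowest, and no heart overlapped (-0.70 ± 0.06 (SE); adjusted p from limma, 5.45e-06). In the list of metabolic coactivators and PPAR targets 9 of 27 members were higher and 2 lower, or 40.7% called against 49.4% of all genes. Those higher included the lipid droplet protein Plin5 (0.77) and the retinoid X receptor gamma gene Rxrg (0.54). The 2 that fell were Ppargc1a and Pdk2, which encodes a kinase that inhibits pyruvate dehydrogenase. Pdk2 went from 15512 ± 724 (mean ± SD, 4 hearts) to 8743 ± 587 (5 hearts), a log2 fold change of -0.83 ± 0.06 (SE) (adjusted p from limma, 1.15e-06).

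In glycolysis and glycogen metabolism 12 of 29 genes were higher and 8 lower. Ldha and Ldhb, the muscle and heart forms of lactate dehydrogenase, went opposite ways: Ldha rose by 0.56 and Ldhb changed by -0.62 (adjusted p from limma, 1.98e-05 and 6.72e-05). The insulin-responsive glucose transporter Slc2a4 rose by 0.71. In pyruvate oxidation and the tricarboxylic acid cycle 8 members were higher and 8 lower of 29. These shares of 27.6% each were near the 24.3% and 25.1% of all genes. The counts were 13 and 6 under quantile normalization and 12 and 7 under cyclic loess. Citrate synthase (Cs) rose by 0.54 and Dlat by 0.51, while Dld, the subunit that pyruvate dehydrogenase shares with other complexes, changed by -0.79. The retrocopy Csl, similar in sequence to Cs, rose by 1.06. Creatine kinases carry high-energy phosphate from mitochondria to myofibrils. The sarcomeric mitochondrial form Ckmt2 was at 69689, 73722, 74329 and 74909 in wild type and 44276, 43372, 47718, 41032 and 47075 in knockout (-0.71 ± 0.06 (SE); adjusted p from limma, 3.62e-06). The ubiquitous mitochondrial form Ckmt1, at 399, 451, 369.7 and 421 and 955, 945, 1065, 822 and 1022, rose by 1.23, so the isoforms went opposite ways with no overlap in either. Myoglobin (Mb), the oxygen-binding protein of muscle, fell from 261610.0 ± 14273 (mean ± SD, 4 hearts) to 174790.1 ± 12569 (5 hearts).

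Chromatin regulators had the most one-sided falls among lists with at least 10 tested members. These proteins move nucleosomes or write, read and erase marks on histones. Of 42 measured members 29 were lower and 3 higher, or 69.0% lower against 25.1% of all genes, with a median of -0.28. Most falls were small, since 9 members fell by 0.5 or more. Arid1a, a subunit of the BAF remodelling complex, was at 2691, 2873, 2815 and 3088 in wild-type hearts and 1769, 2031, 1819.8, 1976 and 1791 in knockout hearts, with no overlap (-0.61 ± 0.06 (SE); adjusted p from limma, 9.13e-06). Kmt2e fell by 0.98, but overlaps Srpk2 and is uncertain. Smarcb1, another BAF subunit, rose by 0.43, and the histone deacetylase gene Hdac5 by 0.24.

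Polr2a, the largest subunit of RNA polymerase II, was among the 15 genes with the smallest adjusted p. Its RNA was at 5113, 4958, 4706 and 5672 in wild type and 2162, 1981, 2089, 1971 and 1884 in knockout, so that the highest knockout heart held less than 50% of the lowest wild-type heart (-1.34 ± 0.06 (SE); adjusted p from limma, 1.04e-07). The polymerase and mediator list as a whole was divided, with 11 higher and 13 lower of 38. Mediator subunits Med15 and Med14 were at -0.78 and -0.65, and Med28 and Med25 at 0.83 and 0.46, all past the test. Splicing factors were lower more often than higher, 21 against 11 of 45. The SF3A subunit Sf3a1, at 1455, 1486, 1446 and 1342 in wild type and 786, 887, 764, 780.0 and 929 in knockout, fell by 0.79 with no overlap, and Snrpf, an Sm ring protein, by 0.75. Srsf2 rose by 0.68, an uncertain value because it overlaps Mfsd11. In cleavage and polyadenylation 8 of 19 were lower and 2 higher. Fip1l1, which helps position poly-A polymerase, was at 1402 ± 67.2 (mean ± SD, 4 hearts) and 646 ± 50.5 (5 hearts), or -1.12 on the log2 scale. Fip1l1 overlaps Lnx1, and Cpsf7, which fell by 0.74, overlaps Tmem216.

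Replication-dependent histone genes divided by protein class. Their main transcripts end in a stem-loop in place of a poly-A tail, so a poly-A library holds only a small and untypical part of them. All 58 measured members together gave 31 higher and 1 lower (median 0.52), or 21 and 12 after the correction for gene span. By class, all 11 H4 genes and all 3 linker H1 genes were higher, as were 15 of 16 H2B genes. In contrast, 2 of 17 H2A genes were higher and 1 lower, and none of 11 H3 genes passed, although their log2 fold changes of 0.38 to 0.66 were similar in size to those of H2B (0.18 to 0.64). H3 genes had wild-type means of 8.87 to 27.4 normalized reads, which limits what could be detected. Log2 fold changes of H4 lay between 1.03 and 1.29 and those of H2A between -0.25 and 0.42. Some members of a class are near-identical copies with near-equal values, for instance Hist1h4a and Hist1h4b, so the 31 rises are not 31 independent measurements. Other members differed in level, with wild-type means of 26.4 to 78.3 normalized reads in H4 and 38.9 to 334 in H2B. Hist1h1e, a linker histone with a more distinct sequence, was at 22.3, 23.1, 18.99 and 18.94 in wild type and 86.7, 52.4, 65.1, 66.2 and 57.6 in knockout (1.59 ± 0.18 (SE); adjusted p from limma, 2.83e-05). Every knockout heart held more than 2 times the highest wild-type value, at low counts.

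Because these genes moved together, promoter stretches of a linker histone and 2 H4 genes are printed as the 120 bases before the RefSeq start, 5′ to 3′ on the gene's strand (GRCm38.p6). Capitals mark matches on either strand to the TATA box letters TATAAA, the CCAAT box, the GC box letters GGGCGG or the cyclic AMP element TGACGTCA.
Hist1h1e, chr13:23622559-23622678, minus strand: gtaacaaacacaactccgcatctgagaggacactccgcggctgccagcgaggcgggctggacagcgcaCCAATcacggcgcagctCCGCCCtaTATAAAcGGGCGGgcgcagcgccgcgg
Hist1h4d, chr13:23581448-23581567, plus strand: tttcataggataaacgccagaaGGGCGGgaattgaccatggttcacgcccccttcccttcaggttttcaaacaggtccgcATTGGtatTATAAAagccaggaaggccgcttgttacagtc
Hist1h4h, chr13:23530924-23531043, plus strand: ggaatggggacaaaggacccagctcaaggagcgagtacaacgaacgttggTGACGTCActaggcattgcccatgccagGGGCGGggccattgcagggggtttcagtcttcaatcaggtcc
Hist1h4d rose by 1.27 and Hist1h4h by 1.03, and the stretch of Hist1h4h has neither TATAAA nor CCAAT. Over 300-base windows, from 250 before to 50 after the start, TATAAA on either strand was found in 32 of 53 histone genes with 1 listed start (60.4%), in 8.07% of such tested genes and in 14.8% of all RefSeq promoters in the table. CCAAT was found in 84.9% of the histone windows, against 39.6% and 38.2%. Among genes higher by at least 0.5, TATAAA was present in 11.8%, and among those lower by at least 0.5 in 8.04%. A match of these letters is a description of the sequence and not a measured binding site.

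Among the lists of mRNA decay factors, the share of falls exceeded that of all genes for decapping and deadenylation only. The first of these includes the decapping complex that NBDY binds. In the decapping and P-body list 10 of 20 members were lower and 2 higher, with a median of -0.25. This was 50% lower against 25.1% of all genes. Edc4, the partner of NBDY, rose slightly, by 0.24, and Dcp1a, a cofactor of the decapping enzyme, did not pass at -0.10. Pnrc2, which links decapping to nonsense-mediated decay, was at 859, 869, 803 and 814 in wild type and 565, 499, 533, 585 and 474 in knockout, with no overlap (-0.66 ± 0.07 (SE); adjusted p from limma, 1.80e-05). The LSM ring protein gene Lsm4 fell by 0.66. Among CCR4-NOT and other deadenylation genes 11 of 26 were lower and 2 higher. The 50% called was close to the 49.4% background, with 42.3% lower against 25.1% of all genes. Cnot4, the ubiquitin ligase of the complex, was at 1101, 1231, 1089 and 1190.4 and 493, 595, 544, 553 and 609, and Cnot3 fell by 0.81, an uncertain value as it overlaps Leng1. The 2 members that rose were the antiproliferative cofactors Btg1 (1.05) and Btg2 (0.77), which recruit the deadenylase. For nonsense-mediated decay the counts were 3 higher and 4 lower of 18, a share below the 49.4% background, with Upf3b at -1.01 and Upf1 at 0.44. For the exosome and its nuclear cofactors they were 2 and 4 of 17, or 35.3% called, also below the background. The shares lower, 22.2% for nonsense-mediated decay and 23.5% for the exosome, were below the 25.1% of all genes.

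Both the proteins of the ribosome and the factors that load it changed in part, and the difference between these lists was not tested. Cytosolic ribosomal protein genes were higher in 42 and lower in 19 of 83 cases, but 31 and 32 after the correction for gene span. Rps14 was at 1105, 921, 1008 and 936 in wild type and 2609, 2564, 2618, 2703 and 2573 in knockout, tight in both groups and with no overlap (1.40 ± 0.06 (SE); adjusted p from limma, 9.75e-08). Rpl8 rose by 0.71, while Rpl11 fell by 0.47. Translation factors were lower in 22 and higher in 8 of 49 cases, with Eif5b, which joins the subunits and overlaps Rev1, at -0.77, Eif5 at -0.72 and Eif4a1, the cap-complex helicase, at 0.49. For the mitochondrial ribosome the counts were 30 higher and 18 lower of 77, or 16 and 22 after the correction for gene span, with Mrps11 at 0.83 and Mrps23, which overlaps Cuedc1, at -0.96.

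Core subunits of the proteasome were mostly higher. In the 20S core, where proteins are cut, 11 of 17 members were higher and 2 lower, or 64.7% higher against 24.3% of all genes. Psmb5, the subunit with chymotrypsin-like activity, was at 735, 644, 615 and 559 in wild type and 1151, 1089.6, 1125, 968 and 1174 in knockout, with all knockout hearts above wild type (0.79 ± 0.08 (SE); adjusted p from limma, 1.59e-05), and Psmb4 rose by 0.72. In the 19S cap, which recognises ubiquitin and unfolds substrates, 4 of 21 were higher and 7 lower, but 9 and 5 under both quantile and cyclic loess normalization. The ATPase Psmc1 went from 2972 ± 164 (mean ± SD, 4 hearts) to 1999 ± 152 (5 hearts), or -0.57 on the log2 scale. Whether core and cap differ was not tested. Autophagy and lysosome genes were higher in 17 and lower in 7 of 35 cases. Atp6v0c, a proton pump subunit, rose by 0.92 and Map1lc3a, which marks autophagosomes, by 0.55. The lysosomal membrane protein gene Lamp2 was at 3059.6, 3171, 3009.5 and 3111 and 1811, 1696, 1877, 1929 and 1871, a fall of 0.75 with no overlap, and the protease gene Ctsl changed by -0.94.

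Antioxidant genes were mostly higher where they passed, with 13 rises and 3 falls among 31. Gstk1, the mitochondrial glutathione transferase, was at 526, 488, 474 and 464 in wild type and 809, 839, 927, 1007 and 838 in knockout (0.85 ± 0.07 (SE); adjusted p from limma, 4.34e-06). Prdx2, a peroxidase, and Txn1, thioredoxin, rose by 0.67 and 0.66. Those that fell include Txnrd1, the reductase of thioredoxin (-0.49), and Nfe2l2, the transcription factor that drives many antioxidant genes (-0.37). In iron handling, the ferritin light chain gene Ftl1 rose by 0.82 and the transferrin receptor gene Tfrc, at 766, 713, 610.3 and 639.9 and 397, 509, 428, 429.7 and 321, fell by 0.72 with no overlap. Ftl1 and Prdx2 have 2 named pseudogene copies each. Endoplasmic reticulum and integrated stress genes gave 2 rises and 8 falls among 25, or 40% called, below the 49.4% of all genes. Xbp1 was at 0.66, Atf6 at -0.43 and Calr at -0.58. Ddit3, a target of that response, did not pass at 0.27. Heat shock and folding chaperones gave 4 rises and 6 falls among 26, below the background share, and 6 and 3 under quantile normalization.

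**Figure D3:**
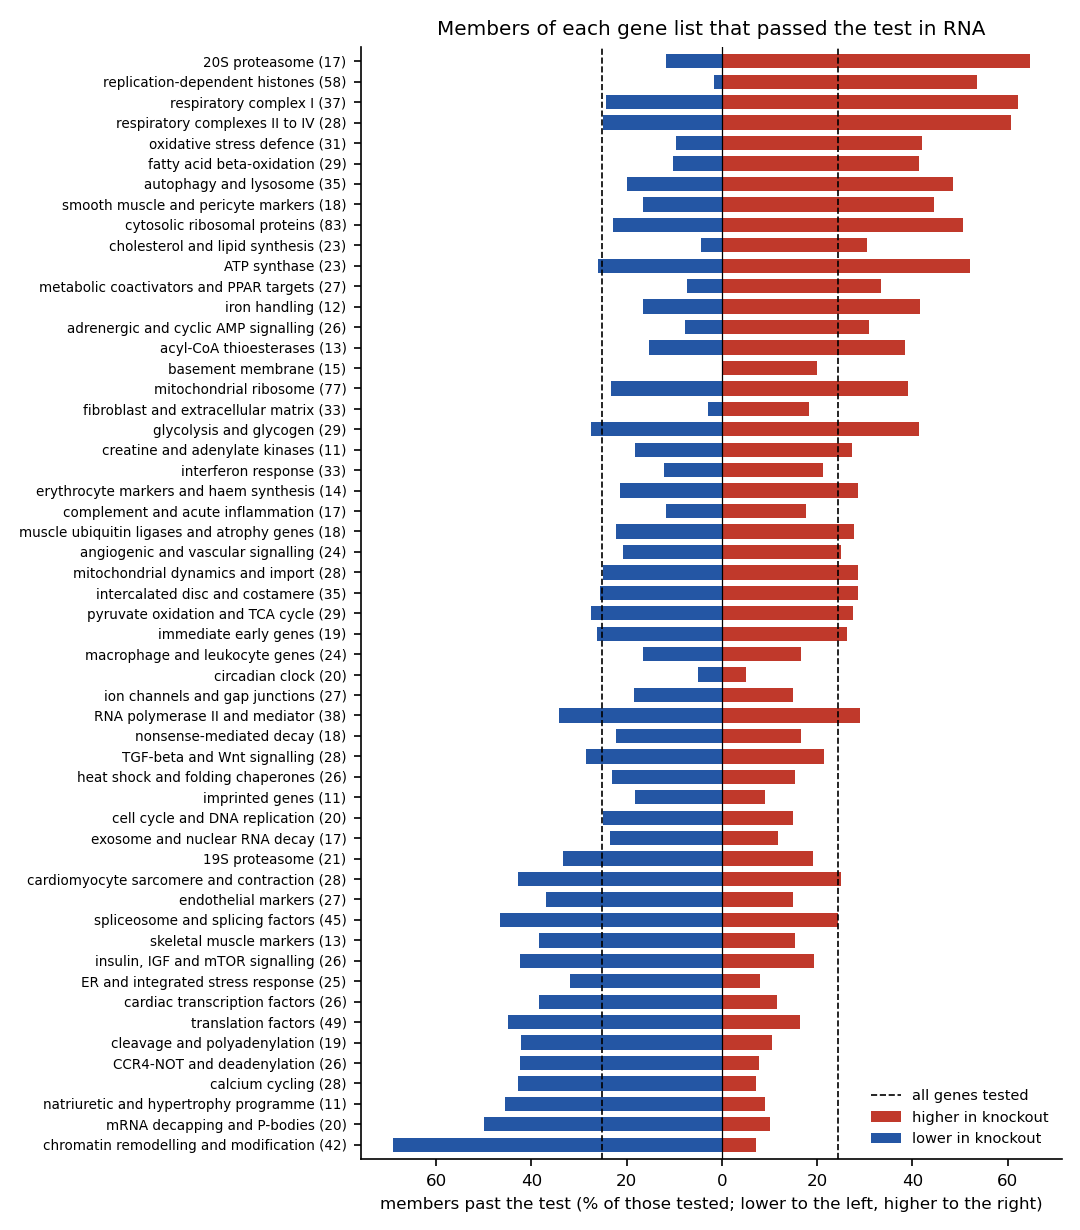
Bars give the share of tested members (number in brackets) that passed limma at an adjusted p below 0.05, higher in knockout to the right in red and lower to the left in blue. Dashed lines mark the shares over all genes tested, 24.3% and 25.1%. Lists with at least 10 tested members are ordered by the difference of the shares, from the 20S proteasome at the top to chromatin remodelling and modification at the bottom.

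Contractile genes changed in part. Of 28 sarcomere genes 12 were lower and 7 higher. This order depended on the scaling, with 10 higher and 6 lower under quantile normalization, 8 and 8 under cyclic loess and 2 and 11 after the correction for gene span. Myh6, the main myosin heavy chain of the adult mouse ventricle, did not pass at -0.25. Under a robust variance model it was called lower (limma adjusted p = 0.0365). Myoz2, which tethers calcineurin to the Z-disc, was at 44916, 40725, 41406 and 40799.9 in wild type and 20456, 21734, 20576, 20662 and 23321 in knockout, about 50% of wild type in every knockout heart (-0.98 ± 0.06 (SE); adjusted p from limma, 3.12e-07). The Z-disc gene Nexn, at 21821 ± 1382 (mean ± SD, 4 hearts) and 11373 ± 135 (5 hearts), fell by 0.94 and Myot by 1.24. Mybpc3 and Des rose by 0.42 and 0.42. In calcium cycling 12 of 28 genes were lower and 2 higher, or 10 and 6 under quantile normalization, 11 and 6 under cyclic loess and 10 and 5 after the correction for gene span, where the median was 0.01. Ryr2, the release channel, and Atp2a2, the pump that refills the store, did not pass at -0.12 and 0.13, although Atp2a2 was called higher under quantile (0.27) and cyclic loess (0.25) normalization. S100a1, which enhances both, was at 27007, 22653, 23276 and 21484 in wild type and 11273, 11842, 12176, 12014 and 12322 in knockout, although it overlaps S100a13 (-0.98 ± 0.07 (SE); adjusted p from limma, 6.98e-07). Ion channels and gap junction genes passed less often than the background, with 4 higher and 5 lower of 27 (6 and 4 under quantile normalization), among them Gja1 (connexin 43) at -0.29.

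Cardiac transcription factors were lower in 10 and higher in 3 of 26 cases. Srf, the factor of serum response and sarcomere genes, was at 3217, 3248, 3158 and 2658 in wild type and 1985, 1684, 1376, 1573 and 1891 in knockout, and Mef2d at 4946, 5033, 4749 and 5249 and 2956, 2696, 2566, 2811 and 2667. Neither overlapped between genotypes, and they fell by 0.86 and 0.87. Nkx2-5 and Gata4 rose by 0.42 and 0.22. The hypertrophy programme gave 5 falls and 1 rise among 11, or 4 and 3 under quantile normalization and 3 and 2 without wild-type heart 1. Its stretch-responsive member Ankrd1 was at 45268, 35586, 50548 and 33477 in wild-type hearts and 16765, 24353, 16141, 14092 and 26744 in knockout hearts. Knockout hearts 7 and 10 came closest to wild type without reaching it (-1.10 ± 0.19 (SE); adjusted p from limma, 5.66e-04). Rcan1, a target of calcineurin, fell by 1.02 with overlapping groups. Nppa, atrial natriuretic peptide, was at 7219, 4006, 4995 and 2907 in wild type and 3452, 4632, 2113, 1846 and 2003 in knockout. Its groups overlapped, and the fall of 0.79 (limma adjusted p = 0.0452) was lost without any 1 of wild-type hearts 1 to 3 and knockout hearts 8 to 10, with adjusted p values up to 0.141. Nppa also missed the threshold under quantile (limma adjusted p = 0.0676) and cyclic loess (0.0707) normalization and under a robust variance model (0.119). Myl4, an atrial and embryonic myosin light chain that overlaps Cdc27, was at 8169, 10831, 11765 and 13618 and 3689.9, 3773, 4742, 3339 and 3159.6 and fell by 1.56. Myl7, another atrial light chain, was at 266, 212, 11.4 and 50.1 and 791, 447, 48.3, 335 and 94.5, spread widely in both genotypes, and did not pass, so the atrial markers did not move together.

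Signalling genes varied by pathway. In insulin, IGF and mTOR signalling 11 of 26 were lower and 5 higher. Prkab2, the muscle beta subunit of AMP-activated kinase, was at 682, 643, 717 and 702 in wild type and 307, 317, 424, 358 and 445 in knockout (-0.90 ± 0.11 (SE); adjusted p from limma, 4.57e-05), with no overlap. Mlst8, a subunit of both mTOR complexes, fell by 0.79. In adrenergic and cyclic AMP signalling 8 of 26 were higher and 2 lower, or 38.5% called, below the 49.4% of all genes. The beta-1 receptor gene Adrb1, at 178, 181, 157 and 123 and 245, 266, 227, 278 and 286, rose by 0.71 and Adra1a by 0.65. The genes that fell, Prkar1a (-0.56) and Prkar2a (-0.70), encode regulatory subunits that hold protein kinase A inactive. In TGF-beta and Wnt signalling 6 were higher and 8 lower of 28, or 50% called, near the 49.4% of all genes. Among them were Id1 at 1.04, Id3 at 0.78 and Smad4 at -0.65. Hif1a, the oxygen-regulated transcription factor, was at 2229, 2256, 2533 and 2263 and 1463, 1212, 1438, 1337 and 1067 and fell by 0.84. The circadian list stood well below the background, with 1 higher and 1 lower of 20, but with 5 and 3 when knockout heart 6 was left out. The lower gene was Clock (-1.02). The higher gene was Cry1 (0.45), whose call was lost without any 1 of wild-type hearts 1, 3 and 4 and knockout hearts 7, 9 and 10, with adjusted p values up to 0.117. Cry1 also missed the threshold under quantile (limma adjusted p = 0.145) and cyclic loess (0.134) normalization and with libraries weighted by quality (0.0506). Arntl, the partner of Clock, was at 697, 489, 161 and 222 in wild type and 577, 129, 126, 91.1 and 40.5 in knockout. Heart 6 stood apart from the other knockout hearts, and without it the log2 fold change went from -1.36 to -1.90 and passed (limma adjusted p = 0.00611). Immediate early genes gave 5 rises and 5 falls among 19, or 52.6% called, also near the background. Jund was at 0.97, Jun at -0.78 and Maff at -1.31.

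Genes of connective tissue and leukocytes passed less often than the background, and those of vessels about as often or more often. Of 33 fibroblast and matrix genes 6 were higher and 1 lower, but 5 and 5 without knockout heart 6. Without wild-type heart 3 the counts were 4 and 2, and without wild-type heart 1 or 4 they were 4 and 1. Dcn, decorin, did not pass at -0.11. Eln, elastin, rose by 0.68 and Timp3, an inhibitor of matrix proteases, changed by -0.81 with overlapping groups. Among endothelial genes 10 of 27 were lower and 4 higher. Ly6c1 was at 3673, 3641, 3039.9 and 3063 in wild type and 1494, 1296, 1150.1, 1397 and 1582 in knockout, with no overlap (-1.28 ± 0.10 (SE); adjusted p from limma, 1.46e-06), and Cdh5, the adhesion molecule of endothelial junctions, fell by 0.50. Pecam1, which marks the same cells, did not pass at -0.06. Podxl, a surface sialomucin of vessels and epicardium, fell by 1.18 and Cd248, of fibroblasts and pericytes, by 1.43. Smooth muscle and pericyte genes were higher in 8 and lower in 3 of 18 cases. In the macrophage and leukocyte list 4 were higher and 4 lower of 24, or 4 and 7 without knockout heart 6, with Cd68 at -1.05 and C1qc at 0.67. B2m, the light chain of MHC class I, was at 6961, 8603, 7842 and 8189.7 and 3826, 3343, 2771, 2968 and 3046 and fell by 1.31, while the interferon-induced genes Bst2 and Ifi27l2a rose by 0.73 and 1.05, the latter overlapping Ifi27. Interferon genes gave 7 rises and 4 falls among 33, or 7 and 6 without knockout heart 6 and 7 and 2 without knockout heart 8. The 33.3% called among them was below the 49.4% of all genes. Whether the summed marker levels given above bear on these differences was not tested.

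**Figure D4:**
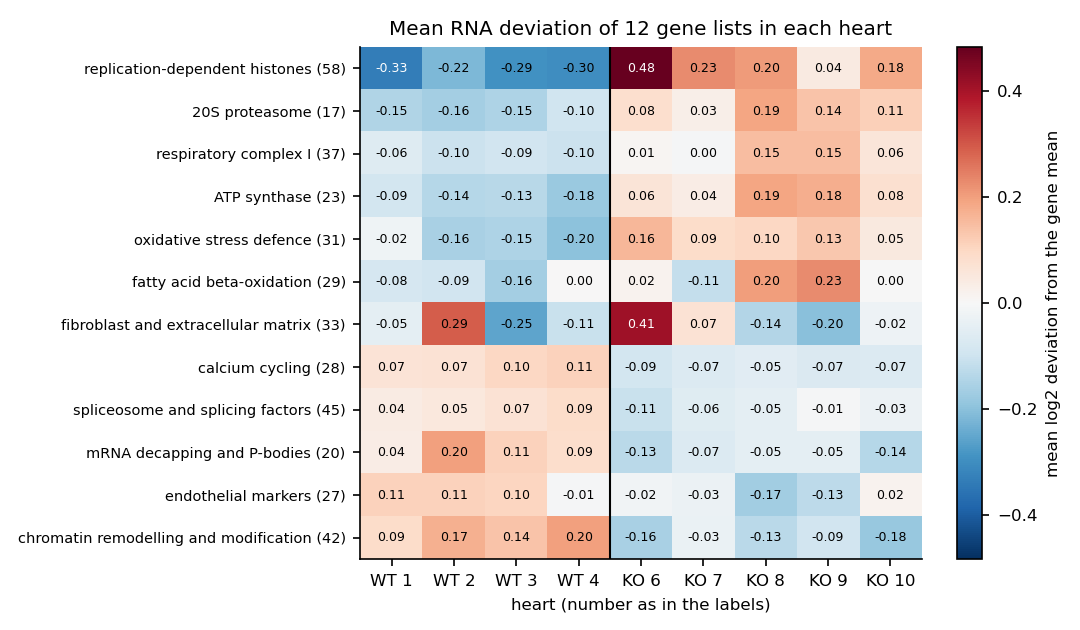
Mean log2 deviation of the members of 12 lists from each gene's mean over the 9 hearts, in wild-type hearts 1 to 4 and knockout hearts 6 to 10 (members in brackets). Histones, the 20S proteasome, complex I and ATP synthase are higher in every knockout heart than in every wild-type heart and chromatin genes lower, while fibroblast genes are highest in knockout heart 6 (0.41) and wild-type heart 2 (0.29).

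By heart, the mean of the chromatin list was between 0.09 and 0.20 above the gene means in wild type and between 0.03 and 0.18 below them in knockout. The histone mean was highest in knockout heart 6, at 0.48, and lowest of the knockout hearts in heart 9, at 0.04. Beta-oxidation genes did not separate: their mean was 0.20 and 0.23 in knockout hearts 8 and 9 and -0.11 in knockout heart 7, within the wild-type range of -0.16 to 0.00. Complex I was also highest in hearts 8 and 9, at 0.15 in each, against 0.01 in heart 6. For complexes II to IV, hearts 6 and 7, at -0.05 and -0.06, were below every wild-type heart, and hearts 8 and 9, at 0.10 and 0.11, above. Heat shock genes were highest in knockout heart 7, at 0.72. The fibroblast list varied more between hearts of a genotype than between genotypes.

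Differences followed the length of the gene. Gene span, the distance from start to end on the genome with introns, was known for 10419 tested genes. With these genes in 10 bins of equal number, the bin of shortest genes, with a median span of 2.41 kb, had 39.7% of genes higher and 15.5% lower and a median log2 fold change of 0.19. In the bin of longest genes, with a median of 173 kb, 9.79% were higher and 34.8% lower, with a median of -0.11. Each step between had fewer rises or about as many, and the median fell at every step. The gradient was present at each level of expression: among genes in the highest of 3 classes by mean RNA, 39.3% of the shortest of 5 span groups and 10.8% of the longest were higher. It was seen in each heart, since the median deviation of the bin of shortest genes was between -0.13 and -0.07 in wild-type hearts and between 0.07 and 0.11 in knockout hearts. In footprints the medians ran the other way and were smaller, from -0.04 in the shortest genes to 0.04 in the longest. Level mattered as well: of 10 bins by mean RNA, the lowest had 6.90% of genes lower in knockout and the highest 37.9%.

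**Figure D5:**
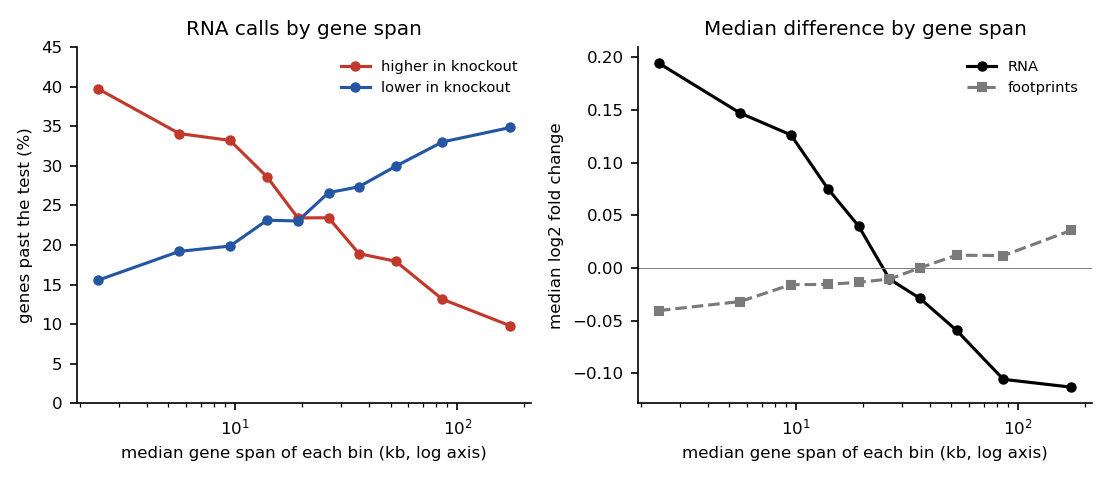
Tested genes in 10 bins by gene span (median span in kb on a log axis). Left, the share of genes past limma, higher (red) and lower (blue) in knockout; right, the median log2 fold change in RNA (solid) and footprints (dashed). The share higher falls from 39.7% to 9.79% and the share lower rises from 15.5% to 34.8%.

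Several list counts depended on this gradient. With the fold change corrected for gene span by a smooth curve, in each library, cytosolic ribosomal proteins went from 42 higher and 19 lower to 31 and 32, with the median at 0.00. Mitochondrial ribosomal proteins went to 16 higher and 22 lower, which turned the larger direction, and complexes II to IV to 12 and 10. Histones, with a median span of 0.492 kb, went to 21 and 12, with the median falling from 0.52 to 0.22. The chromatin list, with a median span of 79.2 kb, kept its direction at 4 higher and 20 lower. Its median went from -0.28 to -0.18. Complex I (20 and 10), the 20S core (10 and 2), antioxidant genes (13 and 4), translation factors (7 and 27) and decapping genes (2 and 10) moved by 5 members or fewer in either direction. Whether the gradient comes from the libraries or from the genotype cannot be told apart here.

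Footprints of the same hearts give a measure that the RNA test did not use. The genotype difference in RNA differed from that in footprints for 14.4% of 9974 genes tested in both (limma interaction, adjusted p below 0.05). For Cox7a2l, RNA changed by -1.51 and footprints by 0.73 (interaction adjusted p = 4.43e-04), and for Cox7a1 by -1.61 and 0.02 (adjusted p = 1.48e-05). For Polr2a the values were -1.34 and 0.30, and for Atp5e 1.54 and -0.23, with interaction adjusted p = 2.01e-05 and 9.51e-06. Thus for these 4 genes the footprint difference was smaller than, or opposite to, the RNA difference. They were named for their RNA differences, and the interaction uses the same RNA values. A smaller footprint difference is therefore partly built into that choice. Other genes gave no such call: Acot4 had 1.75 in RNA and 0.48 in footprints (interaction adjusted p = 0.139), and Tfrc -0.72 and -0.57 (adjusted p = 0.672). For Slc27a1 (1.04 and 0.60), Ankrd1 (-1.10 and -0.53) and Ctsl (-0.94 and -0.60) the call depended on the fit. Their interaction adjusted p values were 0.330, 0.261 and 0.347, and 0.0377, 0.00147 and 0.0326 with the heart as a block. None of these 5 passed in footprints alone. A missed interaction call does not show that the changes were equal.

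Among the genes with the largest differences, several have no textbook role in the heart. The 15 largest rises with separate groups were led by 0610012G03Rik, at 37.6, 42.1, 44.3 and 32.5 in wild type and 159, 113, 142, 122 and 139 in knockout, and included Dedd2 (1.67), which overlaps Zfp526, Tmem160 (1.52) and Mrm1 (1.46), a mitochondrial rRNA methyltransferase. Timm8a1, of mitochondrial import, and Gm9797 had identical values in every library and count as 1 measurement. The largest falls were Evi2b (-1.81), which overlaps Evi2 and Nf1, Gm9844 (-1.74) and Hrct1 (-1.71). Hcfc1r1, at 7242, 7755, 6437 and 8215 and 2457, 2420.3, 2728, 2848 and 2564, fell by 1.51, with each knockout heart below 45% of the lowest wild-type heart, but overlaps Thoc6 and Tnfrsf12a. The highest mean among genes lower by at least 0.5 was that of Gm4076, a row without a RefSeq position, at 864539, 798288, 763869 and 862667 in wild type and 413988, 276580.3, 400072, 389525 and 373387 in knockout. It fell by 1.16 with no overlap, and missed the threshold under quantile normalization (-0.38, limma adjusted p = 0.0501).

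A few genes, named after their values were seen, differed between hearts of 1 genotype by far more than other genes did. Pom121l2 was at 1993, 1156, 893 and 963 in wild type and at 2.26, 2.80, 923, 1134 and 1026 in knockout: knockout hearts 6 and 7 were near 0 and hearts 8, 9 and 10 at the wild-type level. Mid1 was at 121, 88.3, 77.2 and 63.6 and 700.4, 772, 563, 119 and 632, with knockout heart 9 alone at the wild-type level. Ptprn2 was at 5.57, 0, 2.53 and 0 and 338, 354, 310.3, 5.80 and 5.40, present in knockout hearts 6, 7 and 8. The inducible heat shock genes Hspa1a and Hspa1b were at 477, 26985, 871, 330.4 and 2602 and 439.6, 26762, 857, 309.7 and 2584 in knockout hearts, against 122, 1968, 328 and 386 and 119.7, 1939.8, 303 and 380.1 in wild type, with knockout heart 7 far above the rest. Of these 5, Mid1 (2.45) and Ptprn2 (4.99) passed limma, although their groups are not uniform.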

How the data were processed

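Poly-A RNA and ribosome footprints were sequenced from the left ventricle of 9 mice, with 1 RNA library and 1 footprint library per heart. The deposited signal is, per the file headers, a read count per gene divided by library size factors, so no raw counts were tested. The authors used STAR 2.7.1a, HTSeq and DESeq2 with the GRCm38/mm10 build, in roles that are not given, per the submitters' processing notes. The authors' columns of fold changes and p-values and the deposited table of translational efficiency were not used.

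Genes with a mean of at least 10 over the 9 RNA libraries were kept, values were taken as log2(value + 1), and genotypes were compared with limma 3.58.1 (R 4.3.3) with a mean-variance trend and Benjamini-Hochberg adjustment at 0.05. Fold changes are on that log2 scale and understate changes of low genes. An error is the standard error (SE) of the fit or the SD over hearts. Each heart is a separate animal. The interaction compared the genotype difference in RNA with that in footprints for 9974 genes with a mean of at least 10 in both. Hearts pair the libraries in that comparison, since both came from the same animal, and its blocked fit is given with the alternatives. RNA libraries of any pair differed by more than sampling noise, so none was counted as a repeat.

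Members and gene lists were chosen with earlier results of these data known. Of 60 lists, 59 had a tested member. Named genes were Nbdy and its neighbours within 1 Mb, a list's first 2 members and its 3 called members with the smallest adjusted p in each direction, and, over all genes and in each direction, the 15 largest changes with separate groups and a mean of at least 50, the 10 highest means with a change of at least 0.5 and the 5 smallest adjusted p. Others were named after their values were seen. Symbols were available for 10560 of 10597 listed genes and RefSeq positions (GRCm38.p6) for 10429. Promoters come from RefSeq. On simulated data with known changes for the RNA comparison (10580 genes), 64.2%, 82.1% and 97.0% of genes changed by 0.5, 1 and 2 on the log2 scale were recovered, with 6 false calls. Only 67, 67 and 66 genes were changed in the simulated data, which held no batch and no gradient with gene span. These rates therefore do not measure the false calls or the recovery of the real comparison. The alternatives changed the pseudocount, filter, scaling and variance model and left out each heart. A correction for gene span and cyclic loess normalization were added after seeing the data.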

Additional observations from a re-analysis of the deposited data

Results flagged for a closer look

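A heart that stood apart from the others of its genotype was looked for in 292 groups of 4 or 5 hearts, over the genes named above, and 21 groups had one. Chance flags about 5% of such groups. Some of these genes, Hspa1a and Hspa1b among them, were named after their values were seen, so the count cannot be weighed against that rate. Knockout heart 6 was the highest of its group for Arntl (577 normalized reads), C1qc (758), Dcn (9246), Eln (406), Gata4 (1378) and Ifi27l2a (209). Knockout heart 7 was highest for Dedd2 (335), Hspa1a (26985) and Hspa1b (26762), and wild-type heart 2 was highest for Hspa1a (1968) and Hspa1b (1940). The last 2 genes are near-identical copies. Knockout heart 8 was lowest for Ppargc1a (1437) and Smarcb1 (214) and highest for Csl (3267). Knockout heart 9 was lowest for Atp6v0c (1184) and knockout heart 10 highest for Xbp1 (457). In wild type, heart 1 was lowest for Ftl1 (1654) and highest for Myoz2 (44916), heart 3 was highest for Hif1a (2533) and Prdx2 (2665), and heart 4 was lowest for Srf (2658).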

How the results depend on the processing

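The 5230 RNA calls ranged from 4833 to 5275 under the alternative pseudocounts, filters, scalings and variance models, with 3776 at an adjusted p below 0.01 and 6038 below 0.1. They ranged from 4772 to 5064 when 1 heart was left out. With a change of at least 0.5, the 2117 calls ranged from 2030 to 2182 without 1 heart, and with at least 1 the 260 ranged from 244 to 285. The latter count moved to 165 (60 higher and 105 lower) with a minimum mean of 100, which tests fewer genes. Its split of 134 higher and 126 lower became 80 and 146 with the correction for gene span. No scaling moved the median over all genes by more than 0.01. Of the total counts called per gene list 17 moved by more than 1.5 times and 1163 did not, but these totals do not show direction. Of 53 lists with unequal counts, the larger direction turned or became even in 4 under quantile normalization, 5 under cyclic loess, 10 with the correction for gene span and 12 without at least 1 of the hearts. Of 172 genes followed, 6 lost their call under at least 1 alternative, including Gja1 (adjusted p = 0.0567, quantile normalization) and Hbb-bs (0.105, gene span correction). Values near 0 changed sign, none of them called in the reversed direction: Dcn to 0.014 (quantile), Pecam1 to 0.0067 (quantile), 0.017 (gene span) and 0.011 (cyclic loess), Ryr2 to 0.013 (quantile) and 0.0046 (gene span), and Ubqln2 to 0.0052 (quantile), 0.0102 (cyclic loess) and, without 1 heart, between -0.040 and 2.08e-05 (without knockout heart 6). The cause was not tested.

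No paired analysis was possible because the wild-type and knockout hearts share no replicate number. In the comparison of RNA with footprints, where each heart gave both libraries, the replicate block gave 1852 calls (863 and 989) against 1434 (653 and 781), and leaving out 1 heart gave 993 to 1219. The planned correction for transcript length and GC content was not run, as the reference used here gives gene spans only. Depth differed fully by genotype, and genes near the minimum of 10 reads, such as H3 histones, rest on few reads.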
